A study of Homo sapiens with 6 samples.

Results

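Ferritin and the proteins that feed, empty and regulate it were described through 10 genes: the ferritin chains FTL and FTH1, the ferritin receptor for autophagy NCOA4, the transferrin receptor TFRC, the transporters SLC11A2 and SLC40A1, the iron regulatory proteins ACO1 and IREB2, the heme-degrading enzyme HMOX1 and the glutaredoxin GLRX5. They were picked by gene name, with the differences between the groups already known, and each had 1 row among the 18268 of the deposited table. Their differences between the groups are therefore given as a description, with no p-value for any of them, and the number past the threshold of the fit is set only beside the share of all rows. IREB2 is listed only in a row joined with its neighbour as HYKK;IREB2, and that value cannot be assigned to either gene. RNA was sequenced from MIA PaCa-2, an established human pancreatic carcinoma line, in 3 libraries from cells labelled as overexpressing the long noncoding RNA LINC00901 and 3 libraries from cells with the empty pCDH vector. The labels do not say whether the replicates were separate cultures or whether the cells were a clone, so the spread between them may be technical. No row names LINC00901, and its level was not analysed here. P-values below therefore measure only the spread between these libraries. Values are FPKM, the number of fragments scaled by gene length and library size.

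Ferritin is a hollow shell of heavy (FTH1) and light (FTL) chains that stores iron as a mineral. The heavy chain oxidises incoming iron, and the light chain favours formation of the mineral core. Cells match uptake to storage through the iron-responsive element (IRE), an RNA hairpin bound by the regulatory proteins IRP1 (encoded by ACO1) and IRP2 (encoded by IREB2) when iron is scarce. Binding to an IRE in the 5′ untranslated region blocks translation, as in both ferritin mRNAs, whereas binding in the 3′ untranslated region of TFRC mRNA protects it from decay. IRP1 holding an iron-sulfur cluster is a cytosolic aconitase, and IRP2 is degraded when iron is plentiful.

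The IRE is a sequence feature shared by some of these mRNAs, so the hairpin was searched for in the transcripts of all 10 genes. The pattern was C, 5 bases, the loop CAGTGN and 5 further bases, on the sense strand, with at least 4 of the 5 flanking positions able to pair (G-U pairs allowed). In GENCODE release 29 (GRCh38), 1183 of 19669 protein-coding genes (6.01%) had such a match in an untranslated region, and 168 (0.854%) had one with all 5 positions paired. Of the 10 genes, 7 had a match, and FTL, FTH1, TFRC and SLC40A1 had fully paired ones. The matches in SLC11A2, IREB2 and ACO1 paired at 4 of 5 positions, and no match was found in HMOX1, NCOA4 or GLRX5. A match is a description of these letters and not a measured site of binding. The pattern also had no match in EPAS1 or CDC42BPA, which are described as carrying an IRE. A missing match therefore does not show that an element is absent. The sequences below are 29 bases long, read 5′ to 3′, with the unpaired C and the loop in capitals. They show the 5′ matches of FTL and SLC40A1, the 4 matches that this pattern found in the TFRC 3′ untranslated region and the SLC11A2 match.
FTL, 5′ untranslated region: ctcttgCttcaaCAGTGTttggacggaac
SLC40A1, 5′ untranslated region: caacttCagctaCAGTGTtagctaagttt
TFRC, element at transcript base 3388: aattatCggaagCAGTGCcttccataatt
TFRC, element at transcript base 3792: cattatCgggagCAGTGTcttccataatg
TFRC, element at transcript base 3857: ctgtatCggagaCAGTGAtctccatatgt
TFRC, element at transcript base 3904: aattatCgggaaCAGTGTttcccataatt
SLC11A2, 3′ untranslated region: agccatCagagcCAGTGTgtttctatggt

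On GRCh38 the FTL element lies at chr19:48965335-48965363 on the plus strand, and the SLC40A1 element at chr2:189580661-189580689 on the minus strand. The TFRC elements lie on the minus strand of chromosome 3, the first at chr3:196050979-196051007 and the last at chr3:196050463-196050491. The SLC11A2 match lies at chr12:50988269-50988297 on the minus strand, in 5 of the gene's 18 coding transcripts. The FTH1 match starts at base 59 of its 1229-base transcript, ahead of a coding region that begins at base 236, and occurs in 7 of 8 coding transcripts. The deposited values are per gene, so transcripts of SLC11A2 with and without the hairpin are not separated in them.

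**Figure D1:**
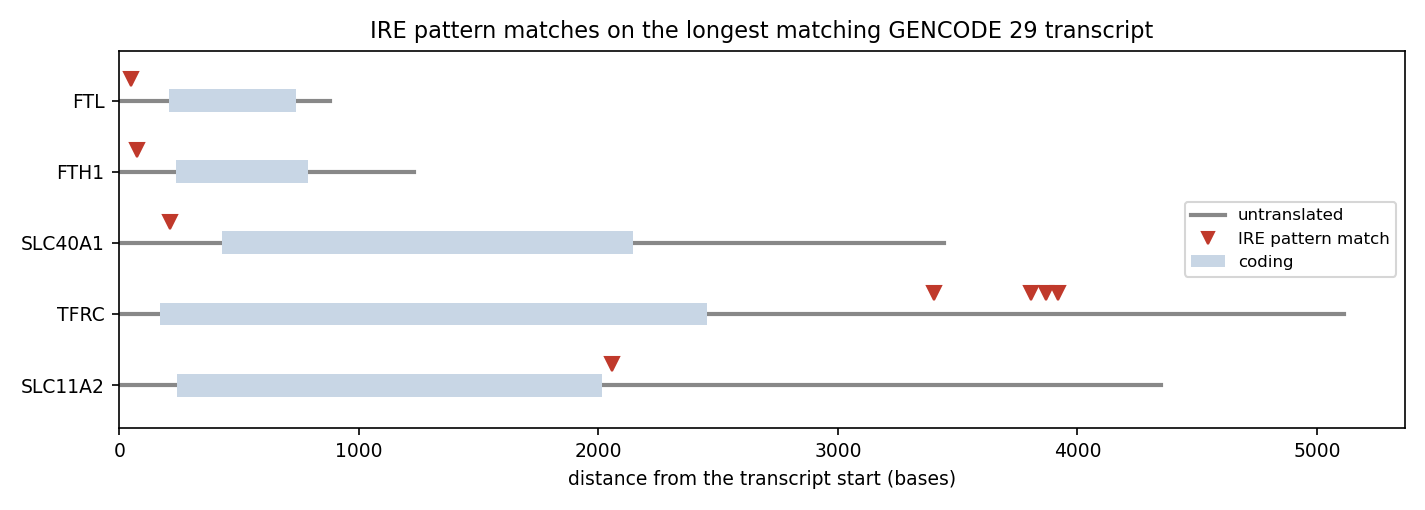
Position of the IRE pattern matches (red triangles) along the longest matching GENCODE 29 transcript of 5 genes, in bases from the transcript start, with coding regions as blue boxes and untranslated regions as grey lines. The matches of FTL, FTH1 and SLC40A1 lie ahead of the coding region, and those of TFRC and SLC11A2 lie behind it.

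The libraries differed in overall scale. FPKM values summed to between 127768 and 128538 in the overexpression libraries, against 87162 to 88738 in the vector libraries, and the median tested gene was higher in the overexpression libraries by 0.27 log2 (1.20-fold). Log2 differences below are overexpression minus vector on log2(FPKM + 0.5), relative to that median gene, with the standard error (SE) of the limma fit. Where another scaling of the libraries is named, the log2 difference is that under the scaling, unless it is called relative. For genes outside the set of 10, a limma adjusted p tests the difference as deposited, before the median gene is subtracted, and a centred adjusted p is the adjusted p after the medians of the libraries were made equal. Differences on this scale understate the change of low genes. The depth of the libraries is unknown. Of 6 epithelial marker genes, 4 reached 1 FPKM in some library, while EPCAM and CDH1 never exceeded 0.14. The keratins differed in direction, KRT18 being listed at 62.48 to 86.92 FPKM in overexpression and 90.93 to 105.38 FPKM in vector libraries. KRT19 was listed at 22.89 to 25.02 FPKM in overexpression and 2.22 to 5.92 FPKM in vector libraries. Erythroid markers, whose cells handle iron in bulk, summed to 0.71 to 1.51 FPKM in the overexpression and 0.52 to 1.83 FPKM in the vector libraries. Fibroblast markers summed to 173.89 to 198.46 FPKM in overexpression and 189.13 to 204.4 FPKM in vector libraries, nearly all of it from COL3A1. Within this sum COL1A1 had means of 1.67 FPKM with overexpression and 0.583 FPKM with the vector. COL1A2 went the other way, with means of 13.1 FPKM with overexpression and 18.1 FPKM with the vector. Neither overlapped between the groups. Leukocyte markers summed to 35.53 to 39.37 FPKM in overexpression and 23.44 to 26.17 FPKM in vector libraries, nearly all of it from the joined row EIF4A1;CD68;SENP3. CD14 was listed at 0.62, 1.37 and 1.34 FPKM with overexpression and at 0, 0.48 and 0 FPKM with the vector, without overlap. CSF1R overlapped between the groups, and PTPRC and CD163 were listed at 0 throughout. The 3 mesenchymal markers summed to 547.71 to 636.77 FPKM in overexpression and 200.8 to 254.31 FPKM in vector libraries through VIM alone, since ZEB1 and CDH2 overlapped between the groups. The part of these markers in the results below was not tested, KRT18, KRT19, COL1A1, COL1A2, VIM, CD14 and the joined leukocyte row among them. RNA was taken in bulk, so a change within each cell and a change in the share of cells cannot be told apart.

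Both ferritin chains stood far higher with LINC00901 overexpression. FTL was listed at 1279.52, 1631.57 and 1377.98 FPKM in the overexpression libraries, against 335.93, 313.16 and 290.15 in the vector libraries. The lowest overexpression value was more than 3 times the highest vector value, and the group means were 1429.7 ± 182 FPKM with overexpression and 313 ± 22.9 FPKM with the vector (SD, n = 3 each), a 4.57-fold difference. The relative log2 difference of FTL was 1.92 ± 0.10 (SE). By level FTL ranked 2nd or 3rd of all rows in the overexpression libraries and between 7th and 11th in the vector libraries. FTH1 was listed at 221.89, 292.02 and 217.90 FPKM with overexpression, against 78.72, 67.82 and 65.44 with the vector. The groups again did not overlap, with a 3.45-fold difference of means and a relative log2 difference of 1.51 ± 0.13 (SE). Overexpression replicate 2 held the highest value of both chains.

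Because both chains are measured in the same library, their ratio is free of any scale shared by all genes. It is not free of a trend with length or GC content. FTL over FTH1 was 5.77, 5.59 and 6.32 in the overexpression libraries, against 4.27, 4.62 and 4.43 in the vector libraries. The mRNA of the light chain thus stood higher relative to that of the heavy chain in every overexpression library than in any vector library. The means were 5.89 ± 0.384 with overexpression and 4.44 ± 0.175 with the vector (SD, n = 3 each). Together the 2 chains made up 1.17%, 1.499% and 1.25% of the FPKM sum with overexpression and 0.476%, 0.437% and 0.401% with the vector. FTL and FTH1 are short, with longest coding transcripts of 878 and 1229 bases. After correction for a trend on transcript length and GC content, their log2 differences were 1.49 ± 0.10 and 1.26 ± 0.13 (SE). These lay closer together than the 2.18 and 1.77 as deposited, and with quantile normalization they were 0.96 and 0.93. GENCODE 29 lists 25 FTH1 and 16 FTL pseudogenes by name and none has a row here, so how the counting dealt with reads that also match a copy is not given in the sources used here.

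GLRX5, a mitochondrial monothiol glutaredoxin that passes iron-sulfur clusters on during their assembly, had the largest difference of the 10. It was listed at 17.74, 21.68 and 21.79 FPKM with overexpression and at 2.71, 0.75 and 0.41 FPKM with the vector. The overexpression libraries were alike (coefficient of variation 11.3%), while the vector libraries spread over a wide range at a low level (96.2%). The means were 20.4 ± 2.31 FPKM with overexpression and 1.29 ± 1.24 FPKM with the vector (SD, n = 3 each), and the relative log2 difference was 3.49 ± 0.43 (SE). Vector replicate 1 is the highest of its group, and without it the relative log2 difference was 4.02. The size of this difference is therefore uncertain, whereas the lowest overexpression value was over 6 times the highest vector value.

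NCOA4 delivers ferritin to autophagosomes, where its iron is set free, and HMOX1 opens the heme ring and releases iron from it. NCOA4 was listed at 56.09, 53.25 and 47.49 FPKM in the overexpression libraries, against 27.58, 20.03 and 29.26 in the vector libraries. The groups did not overlap, and the means differed 2.04-fold, with a relative log2 difference of 0.76 ± 0.15 (SE). HMOX1 was listed at 8.44, 12.02 and 10.25 FPKM with overexpression and at 3.61, 4.06 and 3.81 FPKM with the vector. It too was separated between the groups, by 2.68-fold in the means and a relative log2 of 1.03 ± 0.14 (SE). The ratio of FTH1 to NCOA4, its binding partner, was 3.96, 5.48 and 4.59 with overexpression and 2.85, 3.39 and 2.24 with the vector. The mRNA of the storage chain thus stood higher relative to that of its autophagy receptor in every overexpression library than in any vector library. The log2 differences of FTH1 and NCOA4 were 1.77 and 1.03 as deposited. After correction for length and GC they lay closer together, at 1.26 and 0.88.

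ACO1, the gene of IRP1, stood higher with overexpression, and the row that includes the gene of IRP2 overlapped between the groups. ACO1 was listed at 10.03, 9.85 and 10.17 FPKM in the overexpression libraries, against 4.23, 5.94 and 6.20 in the vector libraries, with no overlap. Its overexpression values were the most uniform of the 10 genes, with a coefficient of variation of 1.60%, and its relative log2 difference was 0.57 ± 0.15 (SE). The joined row HYKK;IREB2 was listed at 7.57, 6.10 and 6.21 FPKM with overexpression and at 6.83, 7.11 and 6.60 FPKM with the vector. Here the groups overlapped, and the relative log2 difference was -0.31 ± 0.11 (SE). With each library scaled to the same FPKM sum, the log2 difference was 0.33 ± 0.15 (SE) for ACO1 and -0.56 ± 0.11 (SE) for the joined row. Relative to the median gene these were 0.55 and -0.34, values that a scaling of whole libraries leaves nearly unchanged.

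The genes of iron entry and exit gave no separation between the groups. TFRC, which brings transferrin-bound iron into the cell, was listed at 37.98, 30.28 and 33.73 FPKM with overexpression and at 60.02, 62.87 and 25.37 FPKM with the vector. Vector replicate 3 lay below all overexpression libraries, while vector replicates 1 and 2 lay far above them. The means were 34.0 ± 3.86 FPKM with overexpression and 49.4 ± 20.9 FPKM with the vector (SD, n = 3 each). The relative log2 difference of TFRC was -0.70 ± 0.33 (SE) with all libraries. It was -0.50 without vector replicate 1, -0.46 without vector replicate 2 and -1.12 without vector replicate 3. Ferritin in vector replicate 3 did not stand out in the same way, being the lowest of its group by a small margin for both chains. The ratio of FTL to TFRC was 33.7, 53.9 and 40.9 in the overexpression libraries, against 5.60, 4.98 and 11.4 in the vector libraries. FTL mRNA relative to TFRC mRNA was thus higher with overexpression in each pairing of libraries, vector replicate 3 included. Protein and stored iron were not measured.

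SLC11A2, the divalent metal transporter that moves iron out of the endosome, was listed at 3.15, 3.56 and 3.37 FPKM with overexpression and at 1.78, 4.29 and 3.25 FPKM with the vector. All overexpression values lay within the range of the vector values, and the relative log2 difference was -0.10 ± 0.26 (SE). SLC40A1, which encodes ferroportin, the exporter of iron, was listed at 0.24, 0.22 and 0.07 FPKM with overexpression and at 0.17, 0.16 and 0.16 FPKM with the vector. It was the only one of the 10 genes below the filter of a mean of 1 FPKM, and no fold is given at that level. The 3 mRNAs with a 5′ IRE match therefore covered the highest and the lowest levels of the set.

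**Figure D2:**
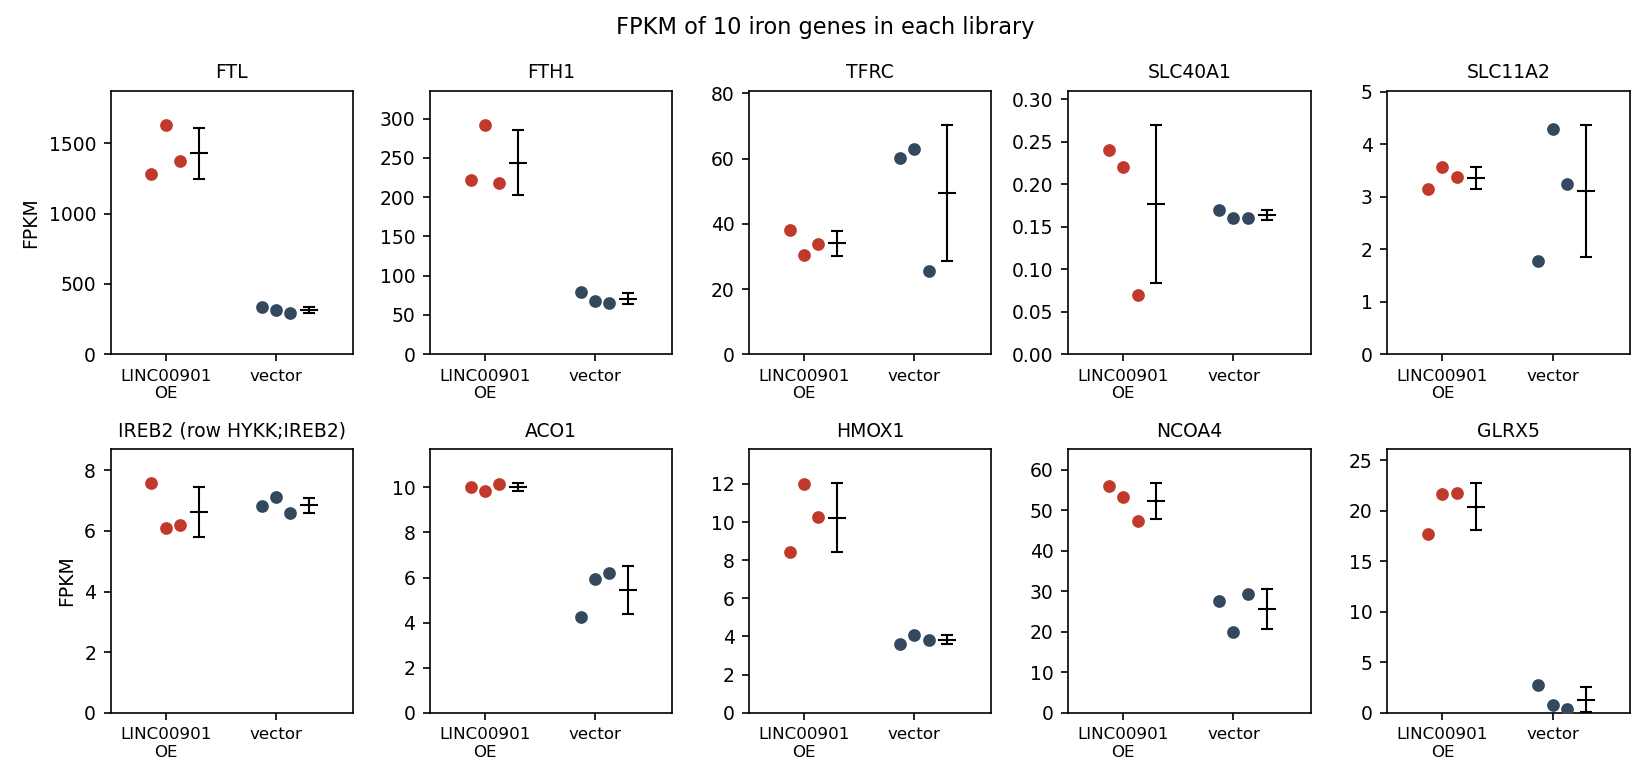
FPKM (vertical axes, each from 0 and with its own scale) of 10 iron genes in the 3 LINC00901 overexpression libraries (red, left) and the 3 vector libraries (dark, right), with mean and SD in black. FTL, FTH1, ACO1, HMOX1, NCOA4 and GLRX5 do not overlap between the groups, and TFRC in vector replicate 3 (25.37 FPKM) lies apart from the other vector libraries.

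FPKM is per length, so levels can be ordered across genes within a group. In the overexpression libraries the mean levels ran FTL, FTH1, NCOA4, TFRC, GLRX5, HMOX1, ACO1, IREB2, SLC11A2 and SLC40A1 from high to low, and only the ranges of HMOX1 and ACO1 overlapped as neighbours. In the vector libraries the order was FTL, FTH1, TFRC, NCOA4, IREB2, ACO1, HMOX1, SLC11A2, GLRX5 and SLC40A1. There the ranges of TFRC and NCOA4, of HMOX1 and SLC11A2, and of SLC11A2 and GLRX5 overlapped. GLRX5 thus stood 5th with overexpression and 9th with the vector, and NCOA4 was above TFRC in every overexpression library.

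Differences of this kind were common in the table. Of the 9 genes that passed the filter, 6 lay past an adjusted p of 0.05 in limma, higher with overexpression in each case, where 49.2% of all 9694 tested rows were called, 37.4% higher and 11.9% lower. Overexpression and vector values were separate for these 6, overexpression being above, as for 60.6% of tested rows in either direction and 44.9% in that one. Since the genes were chosen with these values known, nothing is read from the counts. Over the other settings the number past the threshold was 5 or 6 higher and 0 or 1 lower, while the share of all rows changed. It was 6 and 0 with median centring, where 24% of all tested rows were called higher and 19.2% lower. Equal FPKM sums gave 5 and 1, against 11.9% and 34.5%. Equal FPKM sums moved all genes alike and put the median gene at -0.22 log2. Quantile normalization gives the highest rows of each library the same values, and the differences of FTL, FTH1 and NCOA4 were then 0.96, 0.93 and 0.43 log2. The direction of FTL, FTH1, GLRX5, HMOX1, NCOA4 and ACO1 was higher with overexpression under all 5 scalings, and that of TFRC was lower.

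**Figure D3:**
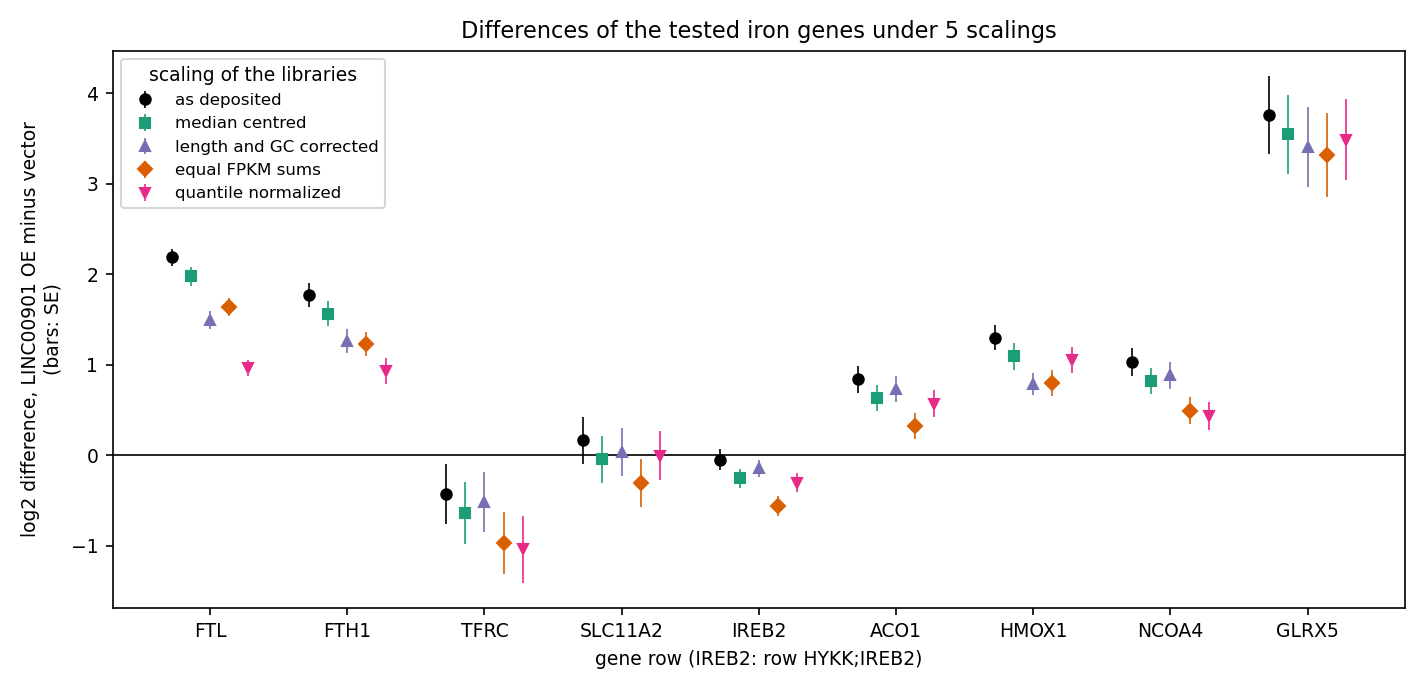
Log2 difference, LINC00901 overexpression minus vector, on log2(FPKM + 0.5) with SE bars for the 9 tested genes under 5 scalings of the libraries. GLRX5 stays above 3, FTL runs between 2.18 as deposited and 0.96 after quantile normalization, and SLC11A2 changes sign.

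A further 95 rows of iron genes, listed by function, were compared in the same fit, and 76 of them passed the filter. The limma fit called 31 of the 76 higher with overexpression (40.8%, against 37.4% of all tested rows) and 6 lower (7.89%, against 11.9%). Their median relative log2 difference was 0.12, where the median of all tested rows is 0 by construction. After median centring 22 of the 76 were called higher and 10 lower, against 2331 and 1866 of all 9694 tested rows (24% and 19.2%). With equal FPKM sums 7 of the 76 were called higher and 22 lower, against 1155 and 3345 of all 9694 tested rows (11.9% and 34.5%). Whether more of the wider iron genes were called higher or lower thus depends on the scaling, as it does for the table as a whole.

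Ferritin receives its iron from the chaperones PCBP1 and PCBP2. PCBP1 was at 96.3 ± 7.23 FPKM with overexpression and 49.6 ± 3.07 FPKM with the vector (SD, n = 3 each), a relative log2 difference of 0.69 (limma adjusted p = 0.000287, centred adjusted p = 0.000968). With quantile normalization its adjusted p was 0.0965 (range over 15 alternatives 0.000223 to 0.0965). The heme exporter FLVCR1 fell to 2.44 ± 1.29 FPKM with overexpression, against 8.12 ± 0.845 FPKM with the vector, a relative log2 difference of -1.90 (limma adjusted p = 0.00349, centred adjusted p = 0.00279). CP, the ferroxidase that partners ferroportin, fell to 0.420 ± 0.233 FPKM with overexpression, against 1.60 ± 0.286 FPKM with the vector (limma adjusted p = 0.00461). CP passed the filter of 1 FPKM only through the vector libraries, since its overexpression values were 0.21, 0.67 and 0.38 FPKM. The size of its log2 difference is uncertain, being -0.88 with a pseudocount of 1 and -1.80 with a pseudocount of 0.1. The joined row BOLA2;NPIPB12;NPIPB11;BOLA2-SMG1P6, which includes a partner of glutaredoxin 3 in cluster delivery, also fell, with a relative log2 difference of -1.44 (limma adjusted p = 0.00107, centred adjusted p = 0.000865). The near-identical copy BOLA2B, in a row of its own, had 7.36 ± 0.279 FPKM with overexpression and 7.81 ± 1.55 FPKM with the vector (SD, n = 3 each). BOLA2B was not called as deposited but was called lower with equal FPKM sums and with the correction for length and GC, and reads could be split between these copies. In all, 4 of 9 tested genes of chaperoning and export were called higher and 3 lower (44.4% and 33.3%, against 37.4% and 11.9% of all tested rows). Median centring gave 2 higher and 3 lower, equal FPKM sums gave 1 and 6, and mitochondrial ferritin (FTMT) and hephaestin (HEPH) were listed at 0.

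Among genes of uptake, 3 of 9 were called higher and 1 lower (33.3% and 11.1%, against 37.4% and 11.9% of all tested rows). Median centring gave 1 higher and 1 lower, and equal FPKM sums gave 0 and 2. SLC39A8, a zinc, manganese and iron importer, fell to 5.61 ± 0.670 FPKM with overexpression, against 12.9 ± 0.353 FPKM with the vector, a relative log2 difference of -1.41 (limma adjusted p = 0.000354, centred adjusted p = 0.000300). It was lower under every alternative tried. STEAP3, the endosomal ferrireductase that acts between TFRC and SLC11A2, rose to 5.06 ± 0.368 FPKM with overexpression, against 2.74 ± 0.318 FPKM with the vector, a relative log2 difference of 0.52 (limma adjusted p = 0.00237, centred adjusted p = 0.00884). With equal FPKM sums its adjusted p was 0.0819 (range over 14 alternatives 0.00226 to 0.0819). The calls of the heme transporter SLC48A1 and the importer SLC39A14 were lost under several settings. SLC48A1 had an adjusted p of 0.0305, a centred adjusted p of 0.129, and of 0.110 with quantile normalization, 0.352 after correction for length and GC and 0.0843 without the filter. Leaving out single libraries gave 0.0919 and 0.0836 without overexpression replicates 2 and 3 and 0.0530 and 0.0513 without vector replicates 1 and 2 (range over 14 alternatives 0.0224 to 0.684). SLC39A14 had an adjusted p of 0.0164, a centred adjusted p of 0.284, and of 0.194 after correction for length and GC and 0.0597 without overexpression replicate 3 (range over 15 alternatives 0.0128 to 0.284). Its difference was 0.06 log2 relative to the median gene and -0.24 log2 with quantile normalization.

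FBXL5, the iron-sensing subunit of the ligase that degrades IRP2, was at 14.9 ± 0.285 FPKM with overexpression and 11.1 ± 0.639 FPKM with the vector (SD, n = 3 each; limma adjusted p = 0.00661). Its difference was 0.15 log2 relative to the median gene, and it was not called after median centring (adjusted p = 0.0773, range over 15 alternatives 0.00442 to 0.717). NEO1, a receptor in the pathway that controls hepcidin, rose by a relative log2 of 0.44 (limma adjusted p = 0.00803, centred adjusted p = 0.0365). NEO1 passed the filter of 1 FPKM only through the overexpression libraries, since its vector values were 0.90, 0.79 and 0.70 FPKM. With equal FPKM sums its log2 difference was 0.33 and it was not called (adjusted p = 0.12, range over 14 alternatives 0.00753 to 0.12). Of 8 tested genes of iron sensing and control, FBXL5 and NEO1 were called higher as deposited and none lower (25.0% and 0%, against 37.4% and 11.9% of all tested rows). Median centring gave 1 higher and 1 lower, equal FPKM sums gave 0 and 4, and hepcidin itself (HAMP) was listed at 0 in all libraries.

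GLRX5 works in mitochondrial iron-sulfur cluster assembly, and 8 of 19 other tested genes of that route were called higher and 0 lower (42.1% and 0%, against 37.4% and 11.9% of all tested rows), with 8 and 1 after median centring and 3 and 3 with equal FPKM sums. The median relative log2 difference of the 19 was 0.33, against 3.49 for GLRX5. NDUFAB1, the acyl carrier protein bound to the assembly complex, rose to 13.1 ± 0.142 FPKM with overexpression, against 5.71 ± 0.171 FPKM with the vector (relative log2 0.86, limma adjusted p = 0.000175, centred adjusted p = 0.000443). ISCU, the scaffold on which clusters are built, rose to 6.48 ± 0.779 FPKM with overexpression, against 2.70 ± 1.07 FPKM with the vector (relative log2 0.92, limma adjusted p = 0.00886, centred adjusted p = 0.0234). Its adjusted p was 0.0616 after correction for length and GC and 0.0697 when FPKM sums were made equal (range over 14 alternatives 0.00516 to 0.0697). FDXR, which supplies electrons for the assembly, and the cluster carrier NFU1 had relative log2 differences of 0.77 and 0.69, and both rose under all 15 alternatives. The row NFS1;CPNE1;RBM12, which includes the cysteine desulfurase, was at 8.20 ± 4.42 FPKM with overexpression and 11.7 ± 2.48 FPKM with the vector (SD, n = 3 each), and was called lower with equal FPKM sums but not as deposited. The mitochondrial iron importer SLC25A37 was at 4.62 ± 2.06 FPKM with overexpression and 7.70 ± 0.232 FPKM with the vector. It was not called as deposited (limma adjusted p = 0.0765) but was called lower after median centring (adjusted p = 0.0397), after correction for length and GC (0.0450) and with equal FPKM sums.

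The list for cytosolic cluster assembly also held the cluster proteins CISD1, CISD2 and CISD3, and CISD1 and CISD3 were among those called higher. Of its 11 tested genes 6 were called higher and 0 lower (54.5% and 0%, against 37.4% and 11.9% of all tested rows). Median centring gave 4 higher and 2 lower, and equal FPKM sums gave 1 and 3. MMS19, which hands clusters to enzymes of DNA metabolism, rose to 14.4 ± 0.810 FPKM with overexpression, against 7.40 ± 0.864 FPKM with the vector, and was called under all 15 alternatives. The scaffold NUBP1 (relative log2 0.72) and the outer-membrane cluster protein CISD1 (0.62) were called higher. With equal FPKM sums their log2 differences were 0.57 and 0.43, but neither was called (adjusted p = 0.0915 and 0.0795). NUBP1 was also not called after correction for length and GC (0.192) or without the filter (0.0532). Over 14 alternatives each, the adjusted p ranged from 0.0112 to 0.192 for NUBP1 and from 0.00334 to 0.0795 for CISD1. The related CISD3 had an adjusted p of 0.0311, a centred adjusted p of 0.0721, and of 0.0726, 0.0891 and 0.0647 without overexpression replicates 1, 2 and 3 (range over 14 alternatives 0.00882 to 0.191). Its unscaled log2 difference of 1.11 was 0.70 without vector replicate 3.

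HMOX1 degrades heme, and of 16 other genes of heme synthesis and breakdown 7 were called higher and 1 lower (43.8% and 6.25%, against 37.4% and 11.9% of all tested rows), with 5 and 1 after median centring and 1 and 2 with equal FPKM sums. Its constitutive relative HMOX2 rose to 7.98 ± 0.744 FPKM with overexpression, against 4.49 ± 1.18 FPKM with the vector (relative log2 0.52, limma adjusted p = 0.0106, centred adjusted p = 0.0378). BLVRA, which reduces the biliverdin that heme oxygenases make, rose by a relative log2 of 0.53, and TMEM14C, which imports heme precursors into mitochondria, by 0.56. HMOX2, BLVRA and TMEM14C were not called after correction for length and GC (adjusted p = 0.202, 0.225 and 0.0818) or when FPKM sums were made equal (0.239, 0.175 and 0.0876). Under quantile normalization HMOX2 and TMEM14C were not called (0.0501 and 0.149). Their adjusted p over 15 alternatives ranged from 0.00334 to 0.239 for HMOX2, from 0.00404 to 0.225 for BLVRA and from 0.00108 to 0.149 for TMEM14C. ABCB10, a mitochondrial transporter needed for heme synthesis, fell to 4.46 ± 0.719 FPKM with overexpression, against 6.69 ± 0.601 FPKM with the vector, and was lower under all 15 alternatives. BACH1, the heme-sensing repressor of HMOX1 and both ferritin genes, was listed at 3.64, 4.30 and 3.15 FPKM with overexpression and at 3.30, 3.99 and 3.23 FPKM with the vector, and was not called (limma adjusted p = 0.739).

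Other human mRNAs described as carrying an IRE were compared in the same way. CDC14A, a phosphatase with a 3′ element in one of its transcripts, fell to 1.25 ± 0.150 FPKM with overexpression, against 2.16 ± 0.207 FPKM with the vector (SD, n = 3 each; relative log2 -0.87, limma adjusted p = 0.0101, centred adjusted p = 0.00367). The hypoxia factor EPAS1 (2.69 ± 0.751 FPKM with overexpression, 1.53 ± 0.743 with the vector) and the kinase CDC42BPA (7.03 ± 0.490 FPKM with overexpression, 6.89 ± 0.674 with the vector) were not called, although CDC42BPA was called lower with equal FPKM sums. ALAS2, the erythroid enzyme of heme synthesis, did not exceed 0.05 FPKM.

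**Figure D4:**
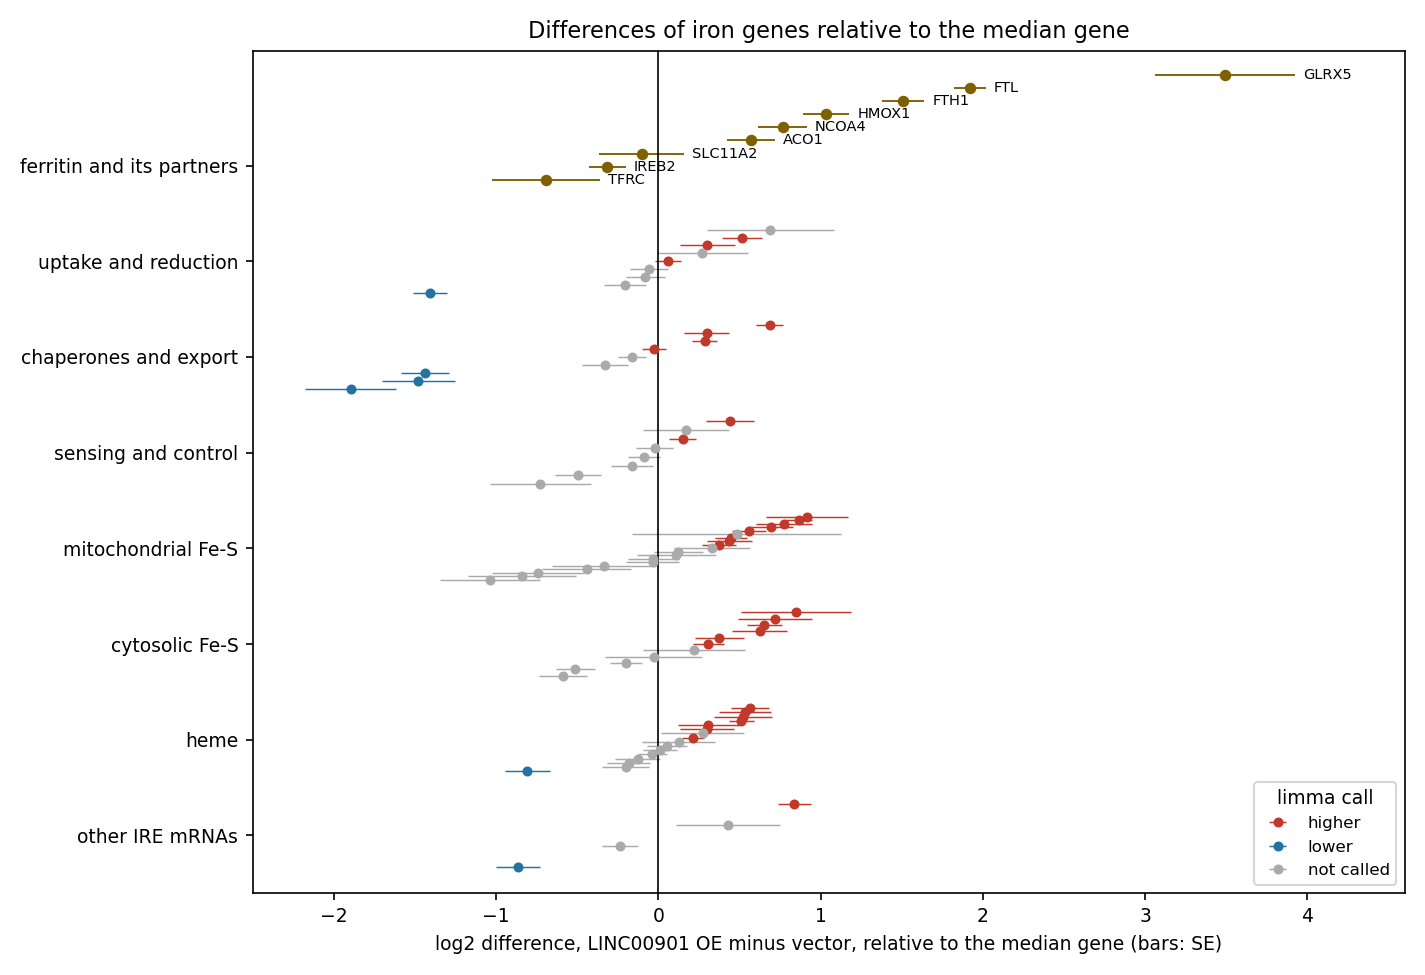
Log2 difference, LINC00901 overexpression minus vector, relative to the median gene (0 on the axis, SE bars) for 9 of the 10 genes described first (top, brown, no test) and for 76 other tested iron genes by function, coloured by limma call on the deposited scale. On this scale GLRX5, FTL, FTH1 and HMOX1, chosen with their differences known, lie above all 76, whose range is -1.90 to 0.92. After correction for length and GC, the log2 difference of HMOX1 (0.78) was below that of CISD1 (0.93). With quantile normalization FTL (0.961) and FTH1 (0.930) were below ISCU (0.997).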

How the data were processed

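The table the authors deposited holds FPKM values for 6 libraries. Build hg19 and the tools HISAT2, cutadapt and FastQC are named in the submitters' processing notes, and the tool that computed FPKM is not given in the sources used here. Whole-read steps were sought in low values: ratios near a power of 2 made up 19.9% (overexpression) and 22.7% (vector), against 20.0% for an even spread (tolerance 0.1 log2), so no counts were recovered and depth is unknown.

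Rows with a mean of at least 1 FPKM (9694) were transformed to log2(FPKM + 0.5) and compared with limma 3.58.1 (R 4.3.3, intensity trend, two-sided, Benjamini-Hochberg over all tested rows, threshold 0.05). The fit was tested on simulated data. The 10 genes and the lists were chosen with earlier results of these data known. From each list of other iron genes, up to 4 called rows with the largest relative difference were named, and the other IRE genes, of which 1 is not reported here. BOLA2B, PCBP2, NFS1, SLC25A37, BACH1, FTMT, HEPH and HAMP were named after their values were seen. Transcript length, GC content and IRE matches came from GENCODE 29 (GRCh38), another build than the authors', with length known for 99.6% of tested rows. Protein identities were not analysed here. Alternatives were other pseudocounts, filters and scalings, the replicate block, each library left out and, chosen after seeing the data, equal FPKM sums and no joined rows. Python 3.11.15, pandas 2.3.3 and matplotlib 3.10.9 did the rest.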

Additional observations from a re-analysis of the deposited data

How the results depend on the processing

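Counts of calls depend on the scaling of the libraries. Of 9694 rows, 3621 were called higher and 1152 lower as deposited, against 2331 and 1866 with median centring, 1865 and 2024 with quantile normalization, 2025 and 1831 after correction for length and GC, and 1155 and 3345 with equal FPKM sums. With a mean of at least 5 FPKM, which tests fewer rows, 2818 were called, 2396 higher and 422 lower. Of the other iron genes, 31 were called higher and 6 lower as deposited, with 10 lower after median centring, 16 and 10 with quantile normalization, 14 and 13 after correction for length and GC, 7 and 22 with equal FPKM sums, and 3 lower with a mean of at least 5 FPKM. Leaving out each library in turn gave 25 to 31 higher and 6 to 9 lower. With the replicate block the counts were 29 and 6, and no library correlated best with its own number (correlations of same-numbered libraries -0.037, -0.0057 and -0.0050), so the numbers were not taken as pairs. The relative difference of FTL ran from 0.96 to 2.18 over 15 alternatives, of FTH1 from 0.93 to 1.77, of GLRX5 from 3.11 to 4.02 and of TFRC from -1.12 to -0.43. SLC11A2 changed sign among them and SLC40A1 was tested only without the filter. Unknown depth limits what can be said of SLC40A1 and of GLRX5 in the vector libraries.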
